A study of Mus musculus with 6 samples.

Results

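The histone genes were 44 of the 17313 genes measured by poly(A) RNA sequencing in 6 libraries of mouse macrophages. They were chosen by name alone, as the genes whose symbol starts with Hist and a digit, H2af, H3f3 or H1f. Because most symbols in the deposited table follow the newer nomenclature, this pattern found 12 genes there as written and 44 when applied to the GENCODE M21 symbols of the same Ensembl identifiers, the 12 included. In the whole of GENCODE M21 the pattern matches 91 genes, so the 44 are not the whole family, and the rest have no value here. Of the 44, 32 were cluster genes, whose older names start with Hist, 10 were variant genes outside those clusters, 1 was an antisense transcript (H3f3aos) and 1 a pseudogene (H3f3a-ps1). The deposited names H1f1 to H1f5 belong to linker histone genes of the Hist1 cluster and were counted with the clusters.

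The macrophages were grown in culture from bone marrow of C57BL/6 mice, taken 20 days after LLC1 cells, a mouse lung carcinoma line, were given by vein. Every mouse carried floxed Hdac2, the gene of a class I histone deacetylase. In the group called WT (BM-H, Hdac2fl/fl, 3 libraries) no Cre was present, so WT here means floxed and not unmodified. In the group called KO (BM-HL, Hdac2fl/fl with LysMCre, 3 libraries) Cre was expressed from the lysozyme gene Lyz2, which is active in myeloid cells, so cells of other lineages keep Hdac2. The labels do not say whether each library came from a separate mouse, so a p-value here measures only how far these samples spread, and that spread may be technical. The values are scaled counts, that is reads per gene scaled per library and rounded by the authors, with library totals from 5704313 to 5837994.

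Histones H2A, H2B, H3 and H4 form the protein core around which DNA is wrapped, and the linker histone H1 binds where DNA enters and leaves it. Cluster genes are the main source of histones in S phase, when DNA is copied. Most of their mRNAs are not polyadenylated: they end just after a short stem-loop that is bound by the protein SLBP, and they are lost when DNA synthesis stops. Most variant genes encode replacement histones such as H3.3, H2A.Z and macroH2A, are transcribed throughout the cell cycle and carry poly(A) tails. Since the library kit selects poly(A) RNA, cluster transcripts without a poly(A) stretch are largely left out, and the level of cluster mRNA as a whole was not measured. The selection is not complete, since structural RNA genes also held counts (given below). Which reads of cluster genes came from transcripts with a poly(A) stretch was not tested.

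The stem-loop is shown first, because it divides the family by how its mRNAs end. It was searched in all annotated transcripts (GENCODE M21, mm10) and found in 25 of the 32 cluster genes and in 1 of the 10 variant genes, H2ax, against 51 of 13814 protein-coding genes of the table, or 0.369%. The 51 include these 26 histone genes. A transcript annotated only to the end of its coding sequence cannot show a stem-loop. Among the cluster genes without one, H4c12, H2ac15 and H2ac10 have models of only 312, 393 and 399 bases. The sites below lie in exons, after the coding sequence, with the 16 bases of the stem-loop in capitals and 5 bases on either side.
H1f2, chr13:23739507-23739532, plus strand: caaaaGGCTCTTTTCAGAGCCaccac
H2aw, chr11:58955167-58955192, plus strand: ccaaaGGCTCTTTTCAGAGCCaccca
H2bc6, chr13:23585526-23585551, minus strand: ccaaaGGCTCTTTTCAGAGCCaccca
H4c9, chr13:22040961-22040986, minus strand: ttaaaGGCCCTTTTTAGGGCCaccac
H2ax, chr9:44335235-44335260, plus strand: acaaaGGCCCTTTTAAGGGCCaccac
The form seen in H1f2, H2aw and H2bc6 was the commonest and stood in 15 members. These 5 genes all passed the filter on low values (at least 10 in at least 3 libraries), and in each the annotated transcript runs on past the stem-loop, by 840 bases in H1f2, 1643 in H2aw, 1861 in H2bc6, 330 in H4c9 and 822 in H2ax. Over the cluster genes that held a stem-loop, the stretch after it had a median of 1241.5 bases (155 to 4884) in the 6 that passed the filter. In the 19 below the filter the median was 151 bases (3 to 2010). The filter is on scaled counts and not on level per kilobase, so genes with longer models pass it more easily. H1f3 passed at 2.72 scaled counts per kilobase, and H4c8 did not at 12.1.

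The poly(A) signal AATAAA was distributed the other way. It lay in the last 50 bases of an annotated transcript in 9 of the 10 variant genes, all but H2ax, and in 7 of the 32 cluster genes (21.9%), against 77.1% of protein-coding genes. The limit of short gene models holds for this signal as well. Among the cluster genes it was present in 4 of the 9 that passed the filter and in 3 of the 23 that did not. Its presence did not order the cluster genes by level: per exonic kilobase the median was 4.73 scaled counts in the 7 genes with the signal and 4.50 in the 25 without.

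Upstream sequence was available from RefSeq (GRCm38.p6) for 36 members, 27 cluster and 9 variant genes, as windows from 250 bases before to 50 after the start. Motifs were searched on both strands. TATAAA, the TATA box, was found in 18 of 27 cluster windows (66.7%) and 1 of 9 variant windows (11.1%), against 15.7% of 27025 genes. CCAAT was found in 22 cluster windows (81.5%) and 6 variant windows (66.7%), against 41.1% of genes. AAACACA, known as the H1 box of linker histone promoters, was found in 4 of 5 cluster linker genes, 1 of 22 cluster core genes and 1 of 9 variants, against 8.22% of genes. The stretch upstream of H1f2, the cluster gene with the highest level, is shown with AAACACA and CCAAT in capitals.
H1f2, chr13:23738637-23738806, plus strand: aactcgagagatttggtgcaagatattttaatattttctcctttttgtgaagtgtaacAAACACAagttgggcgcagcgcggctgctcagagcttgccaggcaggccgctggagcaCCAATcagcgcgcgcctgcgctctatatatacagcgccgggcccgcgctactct
A match says only that these letters are in the window.

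Levels between genes were compared per exonic kilobase of GENCODE M21. The 10 variant genes had a median of 142 scaled counts per kilobase, from 28.9 in H3f3a to 252 in H3f3b. The 9 cluster genes above the filter had a median of 31.4, from 2.72 in H1f3 to 201 in H1f2, and the 23 below it had a median of 4.27, from 1.68 to 12.1. H1f2 and H2bc4 (116 per kilobase) were the only cluster genes above the variant Macroh2a1 (114), and the other 7 tested cluster genes lay at 35.8 or below. Cluster genes also share sequence: 19 of the 32 had at least 25% of their 72-base words, the length of 1 read, in another gene, so their reads could be split or lost in counting.

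**Figure D1:**
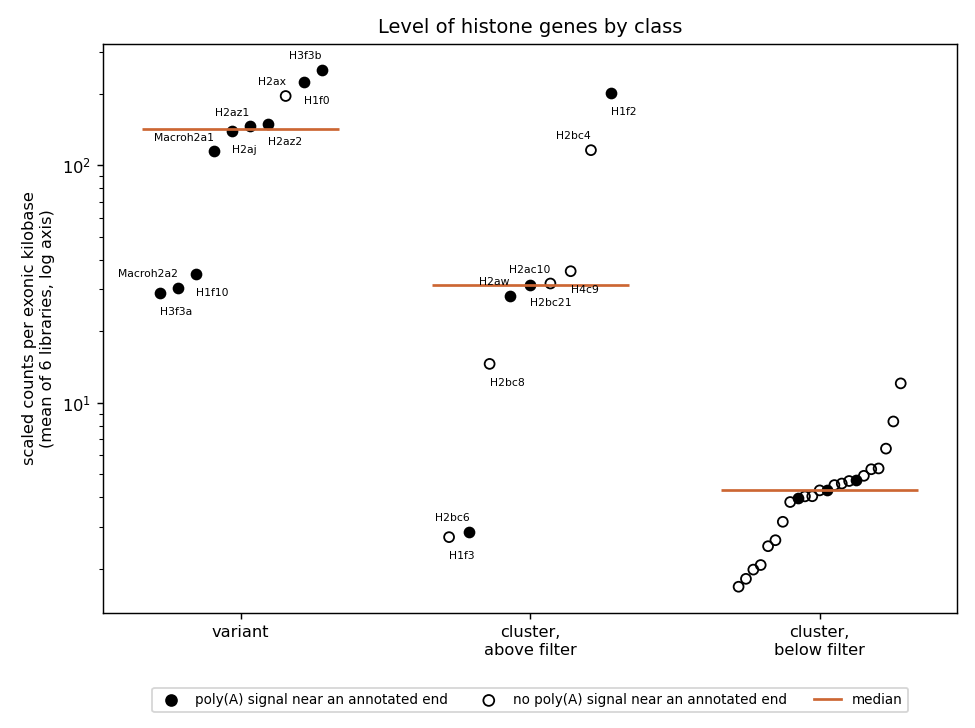
Mean level over the 6 libraries of the 42 protein-coding histone genes, in scaled counts per exonic kilobase on a log axis, by class. Each point is a gene, filled where AATAAA lies near an annotated transcript end, and the line is the class median; most variants sit above 100, and the cluster genes below the filter sit at 12.1 or less.

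Before the histone genes, the libraries were checked. Hdac2 (chr10:36974544-37001889) stood at 534, 482 and 518 scaled counts in WT against 392, 387 and 375 in KO, a KO mean of 0.752 of the WT mean, with no overlap between the groups (log2 difference -0.41 ± 0.057, SE, limma adjusted p = 0.158). All 10 macrophage markers were present, with sums of 12569 to 13453 in WT against 11514 to 12185 in KO. WT 1 stood apart from the other WT libraries. Its 10 stromal markers summed to 12163 against 5372 and 5243 in WT 2 and WT 3 and 12888 to 16354 in KO, with Lum, which encodes lumican, at 0 in WT 2, WT 3 and KO 3. Other markers separated the groups with WT 1 on the WT side. The 2 measured epithelial or carcinoma markers, Krt19 and Cdh1 of a list of 5, summed to 25, 10 and 2 in WT and to 101, 74 and 78 in KO, mostly through Krt19. The 2 measured B cell markers, Cd79b and Ms4a1 of 5, summed to 21, 10 and 13 against 29, 37 and 40. Of these, Cd79b separated the groups, at 17, 9 and 12 against 29, 34 and 39, while Ms4a1 did not, at 4, 1 and 1 against 0, 3 and 1. Xist was at 5243 in WT 1, at 0 and 74 in WT 2 and WT 3, and at 3298 to 4997 in KO, so female-specific RNA also moved with the groups apart from WT 1. The Y-linked genes Ddx3y, Kdm5d, Eif2s3y and Uty went the other way. They stood at 23 to 44 in WT 1, at 179 to 745 in WT 2 and WT 3, and at 0 to 10 in KO. In 11 of the 19 tested histone genes WT 1 lay nearer to the KO mean than to the mean of WT 2 and WT 3. The part of cell composition, sex and WT 1 in the results below was not tested, and the main results are therefore also given without WT 1 and with WT 1 as the only WT library.

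No histone gene passed the test with all 6 libraries. Of the 44 members, 19 passed the filter. H2bc6 and H2ac10 reached 10 in all 3 KO libraries but in only 1 WT library, so they entered the test through the group where they are high, and counts are also given without these 2. At an adjusted p under 0.05 (limma, Benjamini-Hochberg over 13260 genes) 0 were called in either direction, where 0.0% of all tested genes were called. Of the 19, 5 were higher in KO at an unadjusted p under 0.05 (26.3%, background 14.7%) and 1 was lower (5.26%, background 9.68%). All 3 KO values lay above all 3 WT values in 8 members (42.1%, background 16.1%) and below them in 1 (5.26%, background 13.4%). Without H2bc6 and H2ac10, 4 of 17 were higher (23.5%) and 1 lower (5.88%) at an unadjusted p under 0.05, and 6 lay above (35.3%) and 1 below. The median log2 difference, KO minus WT, was 0.16 over the 19 members and also over the 17, and -0.0046 over all tested genes. With 3 against 3 libraries an exact permutation test cannot go below a two-sided p of 0.1, so none was used for single genes.

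The result depended on WT 1. Without it, 4 members rose at an adjusted p under 0.05 (limma), namely Macroh2a2, H1f10, H1f0 and H2bc6, and 0 fell, where 12.8% of all tested genes were called higher and 5.07% lower. Of these, H2bc6 reached 10 in none of the remaining WT libraries and was tested only through its KO values. Leaving out H2bc6 and H2ac10, 3 of 17 members rose. Without WT 1, 8 members lay above (background 24.5%) and 4 below (background 25.2%) the remaining WT values. With WT 1 as the only WT library 0 members were called. At an unadjusted p under 0.05, 1 was higher (background 5.17%) and 0 lower (background 1.06%), and 11 lay above WT 1 (background 28.4%) and 1 below (background 24.6%). In that layout the lone WT library is assumed to vary like the KO libraries. With array weights, which let limma weigh the libraries unequally, 6 members rose and 1 fell, where 38.0% of all genes were called. With no filter on low values 9 of the 44 members were higher at an unadjusted p under 0.05 (background 14.1%), and 12 lay above (background 14.6%) and 1 below (background 10.7%) the WT values. Using only the 12 genes the pattern found among the deposited symbols, 6 were tested, 3 of them higher and 1 lower at an unadjusted p under 0.05.

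**Figure D2:**
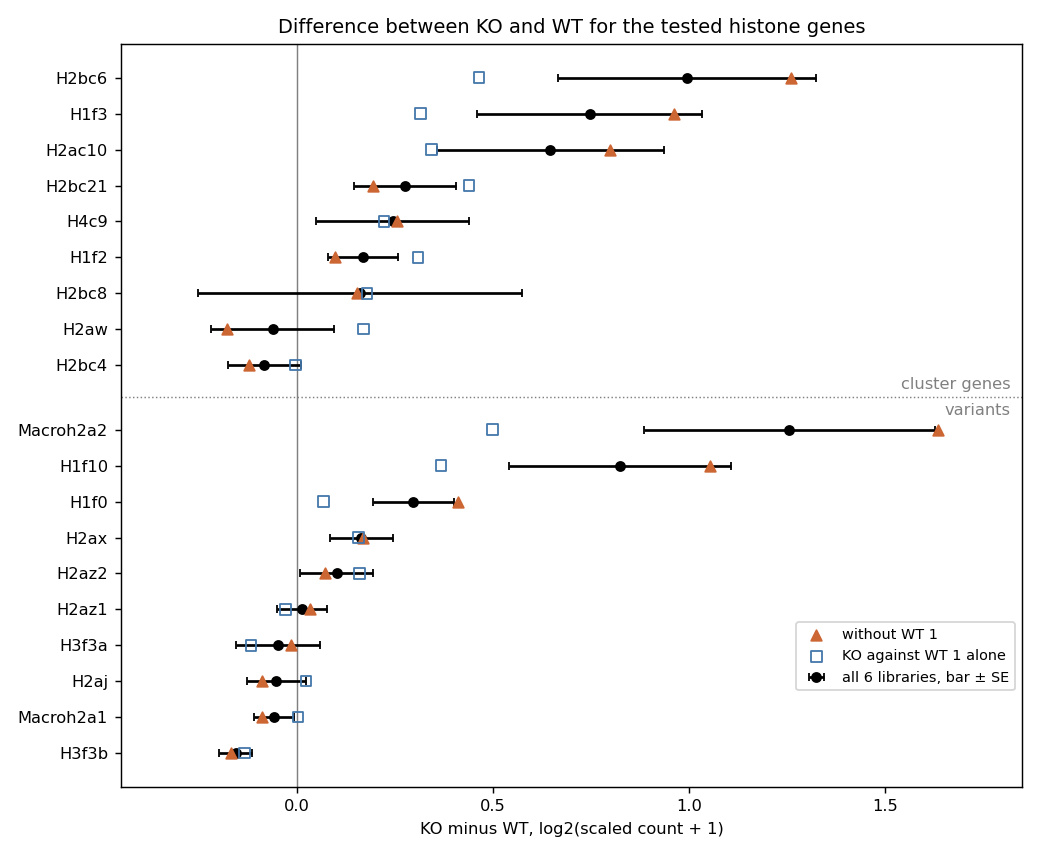
Log2 difference (KO minus WT, scaled count + 1) of the 19 tested histone genes; points with bars are the estimate and its standard error with all 6 libraries, triangles leave out WT 1, and open squares set KO against WT 1 alone. The 4 genes with the largest differences, Macroh2a2, H2bc6, H1f10 and H1f3, all move toward 0 when WT 1 is the only WT library, to between 0.31 and 0.50.

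Among the linker histones all 4 tested genes had a higher mean in KO, with log2 differences of 0.17 to 0.82 and a median of 0.52, and none passed the test with all libraries. H1f0 (chr15:79028450-79030504) encodes H1.0, the linker variant known to accumulate in cells that stop dividing and differentiate. It stood at 481, 371 and 387 scaled counts in WT against 521, 497 and 495 in KO, 413 ± 59.4 against 504 ± 14.5 (SD, n = 3 each). The groups did not overlap, with WT 1 only 14 below the lowest KO value. The log2 difference was 0.30 ± 0.104 (SE, limma adjusted p = 0.168). Without WT 1 it was 0.41 (limma adjusted p = 0.00859, range over all alternatives 0.0049 to 0.865), and against WT 1 alone it was 0.07.

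H1f10 (chr6:87980421-87981637) encodes H1.10, formerly H1X, a replication-independent linker variant. It stood at 41, 30 and 21 scaled counts in WT against 62, 55 and 44 in KO, 30.7 ± 10.02 against 53.7 ± 9.07 (SD, n = 3 each). The groups did not overlap, but WT 1 and KO 3 were 3 scaled counts apart. The log2 difference was 0.82 ± 0.282 (SE, limma adjusted p = 0.165), 1.05 without WT 1 (limma adjusted p = 0.0380, range over all alternatives 0.0042 to 0.844) and 0.37 against WT 1 alone. An antisense gene, Gm5577, shares 213 exonic bases with H1f10 and stood at 7, 7 and 6 in WT against 11, 12 and 24 in KO. The kit is stranded, but no source used here states whether counting used the strand, and reads of the pair may not be separated. H1f0 likewise shares 163 bases with the antisense gene Gm49544, which held 3 to 10 scaled counts in the 6 libraries.

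The cluster linker genes differed widely in level. H1f2 (Hist1h1c, chr13:23738808-23740367), whose stem-loop and upstream sequence are shown above, encodes H1.2, a somatic linker histone. It stood at 267, 331 and 289 scaled counts in WT against 335, 336 and 322 in KO, 296 ± 32.5 against 331 ± 7.81 (SD, n = 3 each). WT 2 lay within the KO range, so the groups overlapped, and the log2 difference of 0.17 ± 0.089 did not pass the test (limma adjusted p = 0.298). H1f3 (Hist1h1d, chr13:23553262-23560686), which encodes H1.3, stood at 20, 14 and 11 in WT against 30, 24 and 22 in KO. These low values did not overlap, with a log2 difference of 0.75 ± 0.288 (SE, limma adjusted p = 0.188), 0.96 without WT 1 (limma adjusted p = 0.0610, range over all alternatives 0.0091 to 0.864) and 0.31 against WT 1 alone.

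Within the reads of the 4 tested linker genes after poly(A) selection, the level per kilobase lay almost wholly in H1f0 and H1f2. H1f2 and H1f3 are cluster genes, so their shares of all linker histone mRNA were not measured. In WT H1f0 made up 48.0% ± 4.97 and H1f2 45.5% ± 6.10 of the summed level of the 4 tested linker genes, and in KO 48.6% ± 0.856 and 42.0% ± 0.856 (SD, n = 3 each). H1f10 made up 5.97% ± 1.62 in WT and 8.70% ± 1.17 in KO, and H1f3 less than 1% in both. The share of H1f3 rests on a gene model of 7425 exonic bases, against 1560 in H1f2. The shares of H1f0 and H1f2 differed between the groups by less than the spread of the WT libraries.

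Of the 6 tested H2A variants, Macroh2a2 had the largest difference of any tested histone gene. Macroh2a2 (chr10:61738665-61784147) encodes a macroH2A, an H2A with a large extra domain found in repressed chromatin. It stood at 64, 24 and 34 scaled counts in WT against 106, 98 and 72 in KO, 40.7 ± 20.8 against 92.0 ± 17.8 (SD, n = 3 each), a ratio of 2.26. The groups did not overlap, although WT 1 lay 8 below KO 3 and 30 or more above the other WT libraries. The log2 difference was 1.26 ± 0.371 (SE, limma adjusted p = 0.158), 1.63 without WT 1 (limma adjusted p = 0.00895, range over all alternatives 0.0036 to 0.799) and 0.50 against WT 1 alone. The order of the libraries, with WT 2 and WT 3 lowest, WT 1 in the middle and KO 1 and KO 2 highest, was also that of the stromal marker sums, 12163, 5372 and 5243 in WT against 16354, 14865 and 12888 in KO. This order was not particular to Macroh2a2. H1f0, H1f10 and H1f3 had it too, while H2ax, H2bc6, H2ac10 and H2bc21, whose KO values also all lay above WT, did not. The part of stromal cells in any of these values was not tested. In bulk RNA more cells of a type and more RNA per cell cannot be told apart. Macroh2a2 shares 233 exonic bases with Aifm2 on the opposite strand, which stood at 372, 426 and 380 in WT against 313, 304 and 376 in KO.

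The other macroH2A gene overlapped between the groups. Macroh2a1 (chr13:56073619-56136361) stood at 760, 812 and 807 scaled counts in WT against 733, 764 and 787 in KO, with a log2 difference of -0.06 (limma adjusted p = 0.518). Per kilobase it was far more abundant than Macroh2a2, which made up 2.49% ± 1.28 of the summed level of the 6 H2A variants in WT and 5.29% ± 0.952 in KO, against 15.5% ± 0.740 and 14.0% ± 0.705 for Macroh2a1 (SD, n = 3 each). The difference between the 2 genes' responses was not tested.

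H2ax (chr9:44334694-44336077) encodes H2A.X, which is phosphorylated at DNA double-strand breaks, and is the variant whose stem-loop is shown above. It is also the variant without AATAAA near an annotated end. The limit set by poly(A) selection on cluster genes therefore holds for H2ax too. Its mRNA level as a whole, which enters the H2A variant shares above, was not measured. H2ax stood at 256, 234 and 276 scaled counts in WT against 281, 296 and 280 in KO, 255 ± 21.01 against 286 ± 8.96 (SD, n = 3 each). The groups were 4 scaled counts apart, and the log2 difference was 0.16 ± 0.079 (SE, limma adjusted p = 0.260), 0.17 without WT 1 and 0.16 against WT 1 alone. Of the 4 variants with every KO value above WT, it was the one whose difference moved least with WT 1.

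The H2A.Z genes and H2aj overlapped between the groups. H2az1 (chr3:137864487-137866922) and H2az2 (chr11:6427229-6444443) encode the near-identical H2A.Z.1 and H2A.Z.2, found at promoters and enhancers. H2az1 stood at 265, 253 and 254 in WT against 249, 273 and 257 in KO, with a log2 difference of 0.01 (limma adjusted p = 0.932). H2az2 stood at 226, 220 and 262 in WT against 262, 261 and 235 in KO, with a log2 difference of 0.10 (limma adjusted p = 0.550). Their levels per kilobase, 146 and 150, were close to each other. H2aj (chr6:136808244-136810074), an H2A variant gene, stood at 246, 280 and 253 in WT against 253, 240 and 257 in KO, with a log2 difference of -0.05 (limma adjusted p = 0.712) and 139 scaled counts per kilobase.

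H3.3, the H3 variant placed into chromatin outside S phase, is encoded by H3f3a and H3f3b. H3f3b (chr11:116021912-116027962) had the highest level per kilobase of all 44 members and was the only tested member whose KO values were all below its WT values. It stood at 778, 812 and 781 scaled counts in WT against 699, 711 and 717 in KO, 790 ± 18.8 against 709 ± 9.17 (SD, n = 3 each), a ratio of 0.897. The libraries within each group were close together and the groups were 61 scaled counts apart. The log2 difference was -0.16 ± 0.042 (SE, limma adjusted p = 0.158), -0.17 without WT 1 (limma adjusted p = 0.0814, range over all alternatives 0.0084 to 0.790) and -0.13 against WT 1 alone. Its WT 1 value lay beside that of WT 3 and away from the KO libraries.

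H3f3a (chr1:180800832-180813943) stood at 108, 102 and 99 scaled counts in WT against 98, 108 and 93 in KO, with overlapping groups and a log2 difference of -0.05 (limma adjusted p = 0.822). Most H3.3 RNA per kilobase came from H3f3b, 90.0% ± 0.502 in WT and 89.3% ± 0.752 in KO (SD, n = 3 each), shares that differed by about the spread of the libraries. The antisense transcript H3f3aos, which shares 160 exonic bases with H3f3a, stood at 4, 3 and 7 in WT against 7, 10 and 5 in KO, and the pseudogene H3f3a-ps1 at 0, 3 and 4 and at 2, 4 and 0. Both lay below the filter. The 10 variants together summed to 3225, 3138 and 3174 in WT against 3264, 3303 and 3237 in KO.

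**Figure D3:**
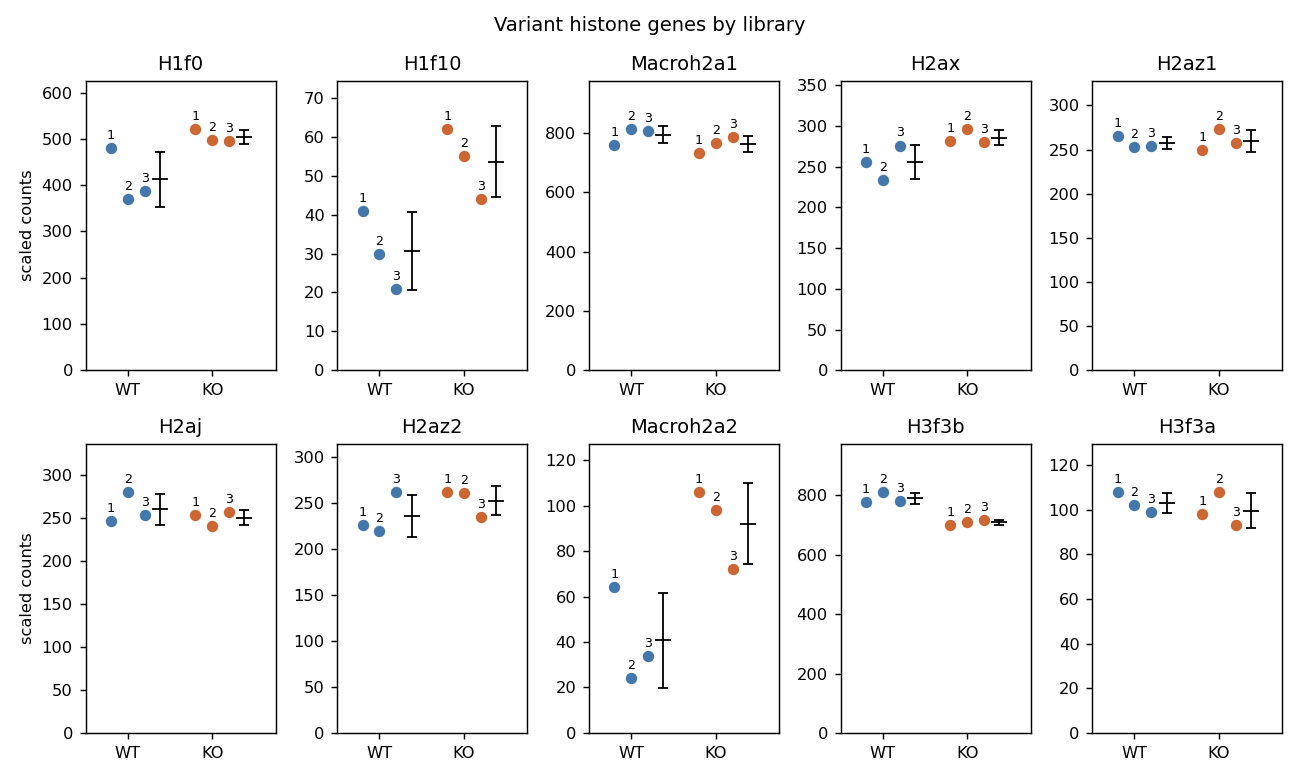
Scaled counts of the 10 variant histone genes in each library, with the mean and SD of each group (n = 3) and the replicate number beside each point; all axes start at 0. H1f0, H1f10, Macroh2a2 and H2ax have every KO point above every WT point, H3f3b has every KO point below, and the other 5 genes overlap.

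Of the 9 cluster genes above the filter, 7 had a mean log2 difference above 0, with a median of 0.24, and 0 passed the test. At an unadjusted p under 0.05, 2 were higher (H2bc6 and H1f3) and 0 lower, 22.2% against 14.7% of all tested genes higher and 9.68% lower. In 4 every KO value lay above every WT value, 44.4% against 16.1%. Without H2bc6 and H2ac10, which entered the test through their KO values, 1 of 7 was higher (14.3%, near the 14.7% of all genes), 2 lay above (28.6%) and the median was 0.17. H2bc21 (Hist2h2be, chr3:96221119-96223738), an H2B gene of the Hist2 cluster with a poly(A) signal and no read-length word in any other gene, stood at 66, 76 and 81 scaled counts in WT against 98, 85 and 87 in KO, 74.3 ± 7.64 against 90 ± 7 (SD, n = 3 each). The groups did not overlap, and WT 1 was the lowest WT library. The log2 difference was 0.27 ± 0.131 (SE, limma adjusted p = 0.255), 0.19 without WT 1 and 0.44 against WT 1 alone, so here, as in H1f2, the difference was larger and not smaller against WT 1.

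H2bc6 (Hist1h2be, chr13:23583670-23621124), an H2B gene of the Hist1 cluster, had the largest difference among the tested cluster genes. It stood at 12, 7 and 6 scaled counts in WT against 17, 15 and 19 in KO, 8.33 ± 3.21 against 17 ± 2 (SD, n = 3 each). The groups were 3 scaled counts apart at values that are close to the filter. The log2 difference was 0.99 ± 0.329 (SE, limma adjusted p = 0.162), 1.26 without WT 1 (limma adjusted p = 0.0359, range over all alternatives 0.0082 to 0.844) and 0.46 against WT 1 alone. Its gene model shares 496 exonic bases on the same strand with the linker gene H1f4, which stood at 4, 2 and 3 in WT against 7, 3 and 5 in KO, so part of the reads cannot be assigned with certainty.

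The other core cluster genes were low, or overlapped. H2ac10 (Hist1h2af, chr13:23533906-23534304), an H2A gene, stood at 12, 8 and 9 scaled counts in WT against 19, 13 and 15 in KO, with groups 1 scaled count apart and a log2 difference of 0.65 ± 0.290 (SE, limma adjusted p = 0.234). It has 87.8% of its 72-base words in other genes, so its value is uncertain. H2bc4 (chr13:23684199-23692908), the H2B gene with the highest level per kilobase, stood at 130, 149 and 134 in WT against 133, 125 and 131 in KO, with a log2 difference of -0.08 (limma adjusted p = 0.622). H2aw (chr11:58954685-58956830), the H2A gene of the Hist3 cluster, stood at 52, 70 and 63 in WT against 55, 62 and 59 in KO, with a log2 difference of -0.06 (limma adjusted p = 0.851). It shares 708 exonic bases on the same strand with Trim17, which has no value here. Other genes hold 30.7% of the 72-base words of H2aw, so its value is uncertain as well.

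H4c9 (chr13:22040636-22041362), the only H4 gene above the filter, stood at 24, 25 and 22 scaled counts in WT against 31, 24 and 30 in KO, and KO 2 lay within the WT range. Its log2 difference was 0.24 (limma adjusted p = 0.486). H2bc8, an H2B gene, ranged from 5 to 13 in WT and from 7 to 11 in KO. No cluster gene for H3, the histone that carries many of the acetylated lysines on which deacetylases act, passed the filter.

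**Figure D4:**
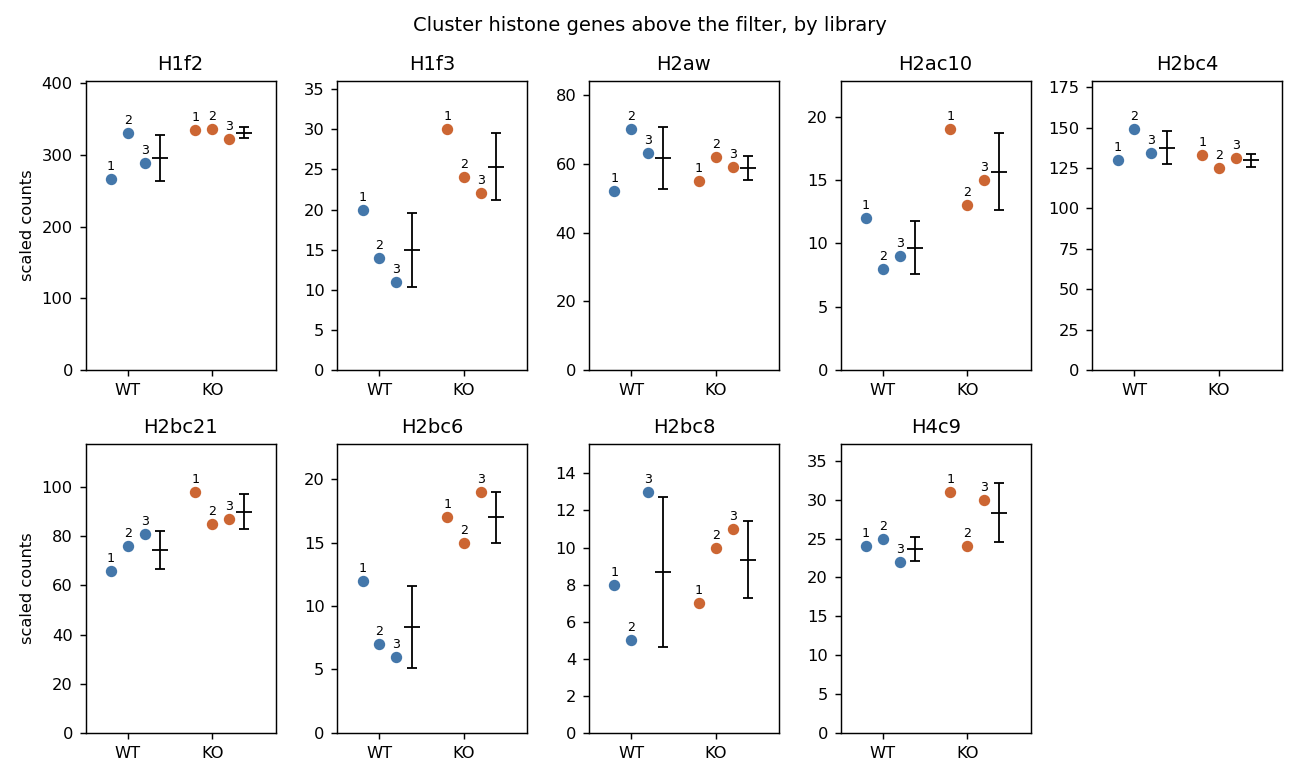
Scaled counts of the 9 cluster histone genes above the filter in each library, with the mean and SD of each group (n = 3) and the replicate number beside each point; all axes start at 0. H1f3, H2ac10, H2bc6 and H2bc21 have every KO point above every WT point, and 3 of these 4 lie at 30 scaled counts or less.

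The 23 cluster genes below the filter, 3 for H1, 5 for H2A, 4 for H2B, 4 for H3 and 7 for H4, held 0 to 12 scaled counts in any library and were not tested. Summed per library they stood at 71, 56 and 55 in WT against 117, 91 and 102 in KO, 60.7 ± 8.96 against 103 ± 13.1 (SD, n = 3 each), a ratio of 1.70, with no overlap between the groups. The KO mean was higher in 20 of the 23 genes, lower in H4c14 and H2bc11 and equal in H2ac8. Over all 4053 genes below the filter the KO mean was higher in 59.7%, and their sum was 13525, 11085 and 12327 in WT against 18159, 16635 and 14012 in KO, a ratio of 1.32. Higher sums in KO were therefore also seen among low genes of other kinds.

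By protein, the sums of these low cluster genes were 7, 9 and 8 in WT against 13, 11 and 14 in KO for H1, and 12, 12 and 4 against 24, 20 and 17 for H2A. For H3 they were 21, 11 and 15 against 32, 24 and 26, and for H4 18, 18 and 13 against 29, 21 and 30. These 4 groups did not overlap between WT and KO. The H2B sums, 13, 6 and 15 against 19, 15 and 15, touched at 15. Single genes with every KO value above every WT value were 4 of 23 (17.4%), where 9.47% of all genes below the filter were so, and 0 lay below, where 2.05% did. They were H4c8 (3, 4 and 2 in WT against 9, 9 and 7 in KO), H2ac6 (3, 2 and 1 against 7, 8 and 6), H3c2 (1, 0 and 0 against 7, 4 and 3) and H2ac4 (1, 1 and 1 against 6, 3 and 3), named after their values were seen.

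RNA classes that poly(A) selection is meant to leave out were also compared, since most cluster mRNA is one of them. The 94 genes of small nuclear, nucleolar, ribosomal and other structural RNA in the table summed to 321, 312 and 315 in WT against 354, 365 and 371 in KO, 316 ± 4.58 against 363 ± 8.62 (SD, n = 3 each), a ratio of 1.15 with no overlap. All 32 cluster genes together summed to 662, 741 and 683 in WT against 842, 785 and 798 in KO, 695 ± 40.9 against 808 ± 29.9, a ratio of 1.16. The cluster ratio was 1.11 for the 9 genes above the filter and 1.70 for the 23 below it. Whether a difference in poly(A) selection had a part in the cluster values was not tested.

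**Figure D5:**
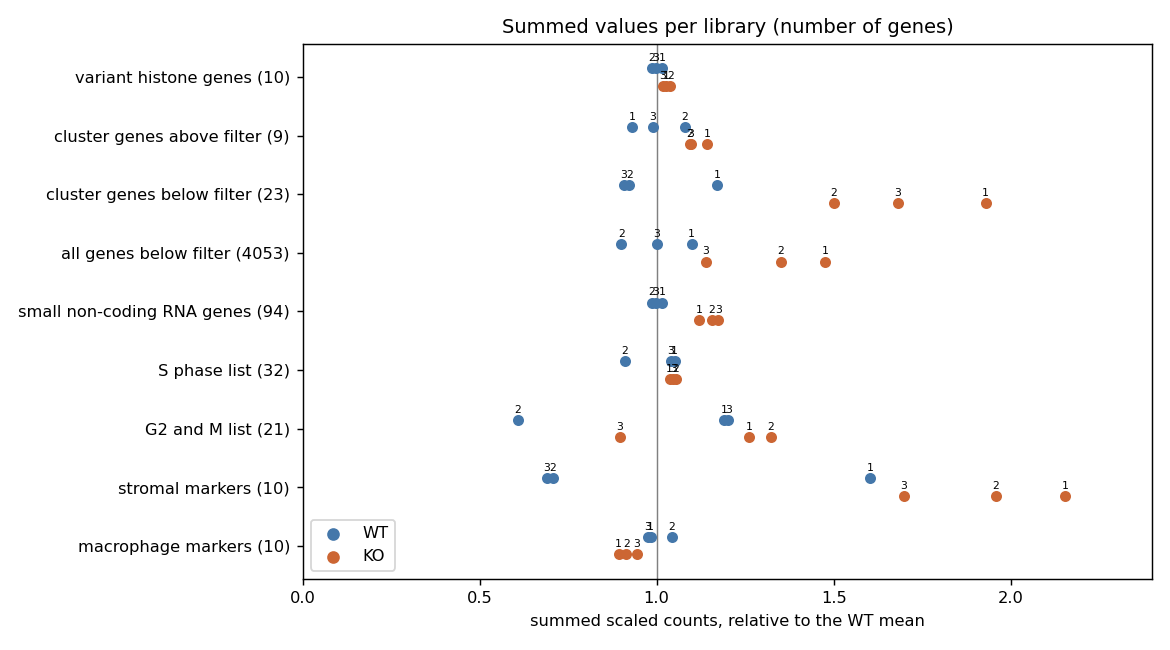
Summed scaled counts per library for the histone classes, the comparison lists and the marker lists, each divided by its WT mean, with the number of genes in parentheses and the replicate number above each point. The 23 low cluster genes have every KO point above every WT point (KO to WT ratio of means 1.70), as do all 4053 low genes (1.32) and the small non-coding RNA genes (1.15), and WT 1 lies near the KO libraries in the stromal sum.

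Genes that transcribe and process histone mRNA differed little on balance. Of 19 tested genes for histone gene transcription and 3' end processing, 0 were called at an adjusted p under 0.05 (limma), 1 was higher at an unadjusted p under 0.05 (5.26%, background 14.7%), and the median log2 difference was 0.01. The smallest p in this list was that of Zfp473, a zinc finger protein of the U7 processing complex, at 16, 18 and 23 in WT against 34, 25 and 34 in KO (log2 difference 0.68 ± 0.239, limma adjusted p = 0.168). Its groups did not overlap. Ncbp1, a subunit of the cap-binding complex, stood at 540 ± 8.50 in WT against 578 ± 24.2 in KO (SD, n = 3 each). Lsm11, which belongs to the U7 particle that cuts histone mRNA, stood at 296 ± 14.0 and 274 ± 9.54, and Eri1, an exonuclease that trims the stem-loop, at 712 ± 34.3 and 744 ± 8.39.

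Of 31 tested histone chaperones and exchange factors, which carry histones and load them onto DNA, 0 were called (limma), 2 were higher (6.45%, background 14.7%) and 1 lower (3.23%, background 9.68%) at an unadjusted p under 0.05, and the median log2 difference was 0.04. Daxx, the chaperone that places H3.3 together with ATRX, stood at 628, 612 and 598 scaled counts in WT against 552, 504 and 576 in KO, a log2 difference of -0.17 ± 0.063 (SE, limma adjusted p = 0.172). Daxx and Ssrp1 had every KO value below every WT value, 2 of the 31 (6.45%, background 13.4%). Another 2 had every KO value above (6.45%, background 16.1%). Tonsl, which binds newly made histones at replication forks, stood at 220, 210 and 231 in WT against 253, 253 and 300 in KO (log2 difference 0.28, limma adjusted p = 0.161). Hjurp, the chaperone of the centromeric H3 CENP-A, stood at 1216 ± 110 and 1394 ± 55 (SD, n = 3 each), and Ubn1, a partner of the H3.3 chaperone HIRA, at 1073 ± 35 and 1145 ± 33.0.

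Because cluster genes are switched on in S phase, genes of the cell cycle were set beside them. Of 32 S phase and replication genes 0 were called with all libraries (limma), 1 was higher (background 14.7%) and 1 lower (background 9.68%) at an unadjusted p under 0.05. A log2 difference above 0 was found in 26 of the 32, against 6510 of all 13260 genes, and the median was 0.07. It was 0.01 without WT 2, 0.12 without WT 1, 0.12 without WT 3 and -0.01 against WT 1 alone. Pcna, the sliding clamp of DNA polymerase, stood at 495, 587 and 562 scaled counts in WT against 449, 462 and 502 in KO (log2 difference -0.22, limma adjusted p = 0.184). Its groups overlapped, KO 3 lying above WT 1. Pole, Prim1 and Lig1, which encode a replicative polymerase, a primase subunit and a DNA ligase, stood at 825 ± 55.1, 267 ± 30.3 and 889 ± 112 in WT against 919 ± 35.2, 312 ± 16.5 and 1018 ± 31.3 in KO (SD, n = 3 each), none of them called with all libraries. Without WT 1, Lig1 rose (log2 difference 0.30) and Pcna fell (-0.29) at an adjusted p under 0.05 (limma).

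Of 21 genes of G2 and M phase 0 were called (limma), 2 were higher and 0 lower at an unadjusted p under 0.05 (background 14.7% and 9.68%), and 12 had every KO value above every WT value (57.1%, background 16.1%). All 21 had a log2 difference above 0, with a median of 0.29, which was 0.09 against WT 1 alone and 0.10 without WT 2. Their sum stood at 16222, 8301 and 16391 in WT against 17203, 18046 and 12222 in KO, so the groups overlapped, with WT 2 and KO 3 low. The genes with the highest values in the list weigh most in that sum, and in some of them those 2 libraries were far below the others: Cenpf, a kinetochore gene named after its values were seen, stood at 979, 74 and 1018 in WT against 996, 1075 and 209 in KO. WT 2 and KO 3 were also low together in genes of the other lists. Atrx of the chaperone list, likewise named afterwards, stood at 1858, 389 and 1967 in WT against 1691, 1796 and 511 in KO. Cenpa, which encodes the centromeric H3 variant and lies outside the name pattern, stood at 497, 483 and 477 in WT against 570, 593 and 506 in KO (log2 difference 0.19, limma adjusted p = 0.174). The mitotic regulators Aurkb, Foxm1 and Plk1 stood at 364 ± 63.9, 607 ± 111 and 414 ± 76.2 in WT against 456 ± 19.9, 754 ± 21.1 and 517 ± 20.9 in KO (SD, n = 3 each).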

How the data were processed

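Poly(A) RNA was sequenced as single reads of 72 bases from 3 µg of total RNA per library with a stranded mRNA kit, per the labels' protocols. The deposited table holds 1 whole-number value per gene and library, treated here as a score: a count scaled per library and rounded by the authors. Per the submitters' processing notes, with no role or order given, the tools were DESeq2 1.36.0, featureCounts 2.0.3, STAR 2.7.10a, Picard 2.27.4 and Trimmomatic 0.39, and the build mm10. Because the values are scaled and rounded, no count model was used and no counting interval is given.

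Histone members were found by symbol, also through GENCODE M21, where 17297 of the genes were found by identifier, 99.1% of them with the same coordinates. The members and the gene lists were chosen with earlier results of these data known. The test was limma 3.58.1 (R 4.3.3, two-sided, intensity trend) on log2(value + 1), run on the 13260 genes that reached 10 in 3 or more libraries. P-values were adjusted over all of them by Benjamini-Hochberg, the threshold was 0.05 and the model held the group alone. Differences on this scale understate the change of low genes. Python 3.11.15 with pandas 2.3.3 gave the sequence features, levels per kilobase and sums. The rule for named genes takes all tested variants, the tested cluster genes with the highest level per kilobase or the smallest unadjusted p, up to 4 genes of the smallest p in each comparison list, and Hdac2 and Lyz2 as checks of the labels; Lyz2, the gene that carries the Cre, stood at 1068, 1144 and 1055 in WT against 930, 942 and 953 in KO. On simulated data with 200 of the 13260 genes changed, the test recovered 64 of 100 genes changed 2-fold and 85 of 100 changed 4-fold, with 5 false calls. The simulated noise was drawn independently for each gene and library. In the real libraries deviations from the group means were shared, with WT 2 and KO 3 correlated at 0.618. The simulation therefore checks the code and does not give the recovery to be had with these libraries. The alternatives were other scalings, filters, pseudocounts, library weights, each library left out, WT 1 as the only WT library and the replicate number as a block. After the data were seen, the use of only the 12 genes matched by deposited symbol, the removal of members that reach 10 in all KO but not all WT libraries, and the removal of genes that share at least 25% of their 72-base words were added.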

Additional observations from a re-analysis of the deposited data

How the results depend on the processing

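Of the values recomputed for counts and medians, 186 stayed within their limits of change, and of the single genes 294 kept their direction and side of the threshold. The number of histone genes called higher, 0 of 19 with all libraries, was 6 with array weights, where 38.0% of all genes were called, and ranged from 0 to 4 when each library was left out, the 4 being without WT 1. The number called lower was 1 with array weights. These weights rated the WT libraries 0.366, 0.265 and 3.68, so that WT 3 largely stood for WT. Members higher at an unadjusted p under 0.05, 5 as reported, were 9 with no filter, 2 with a filter at a mean of 50, 3 with cyclic loess scaling, 1 against WT 1 alone, 3 among the 12 genes matched by deposited symbol (added after the data were seen), and 1 to 6 when each library was left out. Members lower, 1 as reported, were 2 with array weights and 0 against WT 1 alone. Members with every KO value above WT, 8 as reported, were 4 with the filter at a mean of 50, and 3 among those 12 genes. Members below, 1 as reported, were 2 with cyclic loess, and 1 to 4 when each library was left out. The cluster median of 0.24 was 0.54 with no filter, 0.053 with the filter at 50, 0.17 with cyclic loess, 0.31 against WT 1 alone, 0.17 without H2bc6 and H2ac10 and 0.19 to 0.34 when each library was left out. The processing list's median was 0.058 with cyclic loess. The chaperone list's median was -0.0050 with array weights and -0.013 against WT 1 alone, and 0.0019 to 0.070 when each library was left out. The S phase median was -0.0075 against WT 1 alone. The sign changed for H2aw (-0.18 to 0.033 when each library was left out, 0.17 against WT 1 alone), H4c9 (-0.045 with cyclic loess), H2bc8 (-0.32 with cyclic loess, -0.38 with array weights, -0.14 to 0.47 when each library was left out), Macroh2a1 (0.0019 against WT 1 alone), H2az1 (-0.024 to 0.042 when each library was left out, -0.030 against WT 1 alone), H2aj (-0.091 to 0.0024 when each library was left out, 0.023 against WT 1 alone) and H3f3a (0.035 with array weights). Single genes were newly called 11 times, 7 with array weights and 4 without WT 1. The cause of these changes was not tested. Libraries of the same replicate number correlated at 0.534, -0.364 and 0.024 in their deviations from the group means. With 3 libraries per group such correlations cannot settle whether the numbers mark pairs. With a replicate block 0 members were called, 5 were higher and 1 lower at an unadjusted p under 0.05 (limma), and the cluster median was 0.24. Of all pairs of a WT and a KO library, WT 2 and KO 3 correlated most, at 0.618. What these libraries share was not tested.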
